A study of Homo sapiens with 4 samples.

Results

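Kinesins are motor proteins that use ATP to walk along microtubules or to shorten their ends. One set of them builds the mitotic spindle, moves chromosomes and completes cell division, and the genes for this set are mostly transcribed late in the cell cycle. Another set carries vesicles, mitochondria and other cargo through the cytoplasm or along cilia and is used by cells that do not divide as well. The genes described here are the protein-coding genes whose symbol is KIF or KIFC followed by a number and at most 1 letter. They numbered 42 of 19951 protein-coding genes and of 58735 genes in all. They were divided by textbook role into 14 mitotic kinesins, 17 transport kinesins and 11 remaining ones, most of which act in cilia or have no settled role.

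RNA was sequenced from 769-P, an established human renal clear cell carcinoma line, in 2 libraries of doxycycline-treated cells and 2 libraries of untreated cells. Both groups carried the same stably transfected, inducible hairpin against USP35, a deubiquitylating enzyme, and were grown under puromycin. The treated cells received doxycycline at 1 µg/ml for 4 days, and a library given the drug without the hairpin was not analysed here, so the effects of drug and hairpin cannot be told apart. Separate cultures are not stated for the replicates, so each p-value reflects the spread of these libraries alone, which may be technical.

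Levels are given as the deposited FPKM, in which a gene's fragments are divided by gene length and by library size. Recovered reads per library numbered 17481827 and 18764546 with doxycycline and 16319640 and 17244546 in untreated cells. The library sizes used in the FPKM were 107.5% and 97.6% of these reads with doxycycline, and 97.2% and 101.0% in untreated cells. USP35 stood at 2.11 and 2.54 FPKM with doxycycline, against 3.31 and 4.19 FPKM in untreated cells, and did not pass the test (limma adjusted p = 0.256). Of the renal and carcinoma markers, PAX8, KRT8, KRT18 and VIM had means of at least 1 FPKM, while CA9, a marker of clear cell carcinoma, did not. The 12 endothelial, leukocyte and fibroblast markers each had a mean under 1 FPKM. The doxycycline libraries differed from each other in 2 features. The 15 listed interferon-induced genes summed to 1758 and 191 FPKM in doxycycline replicates 1 and 2, against 115 and 119 FPKM in untreated cells. Mitochondrially encoded genes took 7.44% and 14.6% of the reads of doxycycline replicates 1 and 2, against 8.21% and 8.50% in untreated cells.

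Of the 42 kinesins, 28 averaged at least 1 FPKM and entered the test, 12 of them mitotic, 12 transport and 4 remaining. All 28 were at or above 1 FPKM in every library, the lowest value being 1.07 FPKM for KIF27 in an untreated library. KIF27 was the member nearest above the limit with a mean of 1.58 FPKM, and KIF9 the nearest below it with 0.933 FPKM. The test was limma-trend on log2(FPKM + 1) over all 12029 genes kept, two-sided, with Benjamini-Hochberg adjustment and a threshold of 0.05. Differences on this scale understate the change of low genes. No gene of the 12029 passed, and 0% were called in either direction, so no kinesin is said here to have changed. At an unadjusted p under 0.05, 1426 genes were lower (11.9%) and 778 higher (6.47%) with doxycycline, and voom on recovered reads called 121 genes.

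The mitotic kinesins were the set that stood lower. For all 12 that were tested, both doxycycline values lay under both untreated values, an arrangement shown by 28.9% of all genes tested. Each of the 12 was lower at an unadjusted limma p under 0.05, as were 11.9% of all genes tested. Their median log2 difference was -1.13, with a range of -1.79 to -0.83, against a median of -0.03 over all genes tested. The smallest limma adjusted p among them was 0.0573 and the largest 0.106. In cells treated with doxycycline their mean levels ran from 1.15 to 11.0 FPKM, against 3.28 to 24.97 FPKM in untreated cells. The transport kinesins had a median difference of -0.06 and a range of -0.70 to 0.55, so that the ranges of both classes did not meet. They did overlap without doxycycline replicate 1, when the transport kinesins reached -1.27 (KIFC2) and the highest mitotic value was -0.78. With no filter on FPKM the ranges also overlapped, since KIF4B, with at most 7 reads in any library, then entered at -0.05. Counting KIF2A (-0.14) as mitotic made them overlap too, so the gap depended on the members and libraries used. The difference between classes was not tested, since the members were chosen with earlier results of these data known.

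**Figure D1:**
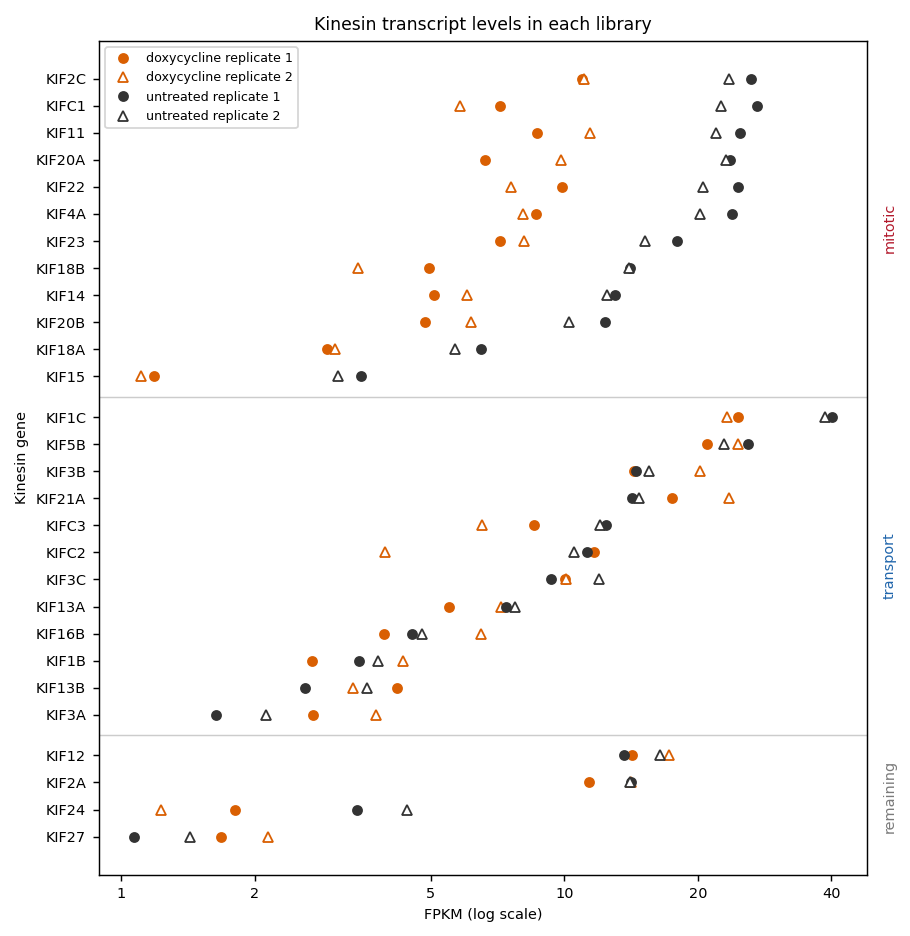
FPKM of the 28 kinesins kept, on a log axis, with 1 point per library (orange, doxycycline; black, untreated; filled circle, replicate 1; open triangle, replicate 2). The 12 mitotic kinesins have both orange points left of both black ones, while most transport kinesins have mixed points.

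The summed level of all 14 mitotic kinesins was 78.1 and 81.7 FPKM with doxycycline, against 218 and 193 FPKM in untreated cells. The 17 transport kinesins summed to 128 and 138 FPKM with doxycycline, against 149 and 149 FPKM in untreated cells. Mitotic kinesins therefore made up 33.0% and 32.0% of kinesin FPKM with doxycycline, against 54.3% and 50.6% in untreated cells. The transport share was 53.97% in each doxycycline library, against 36.9% and 39.2% in untreated cells. FPKM are relative to the whole library, so in these bulk samples a smaller share of dividing cells and less RNA per cell cannot be told apart.

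**Figure D2:**
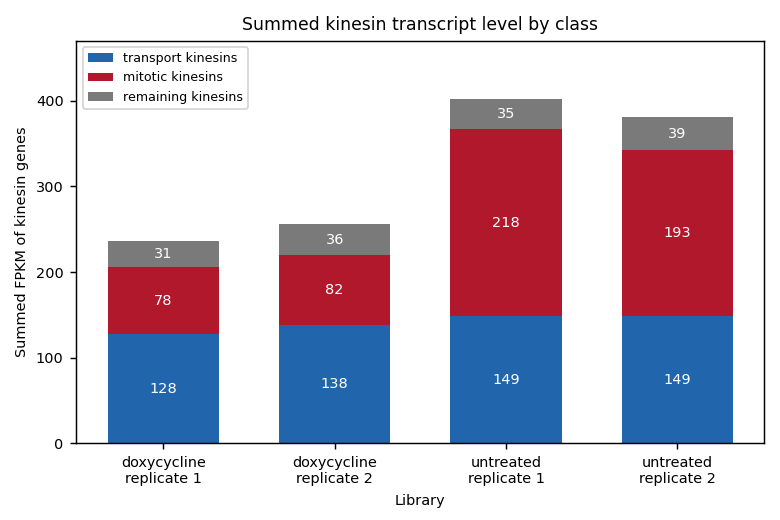
Summed FPKM of the 14 mitotic, 17 transport and 11 remaining kinesins in each library, stacked. The mitotic part was 78.1 and 81.7 FPKM with doxycycline, against 218 and 193 FPKM in untreated cells.

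KIFC1 had the largest difference among the kinesins tested. It encodes a motor that walks toward microtubule minus ends, cross-links spindle microtubules and gathers surplus centrosomes (chromosome 6, 33391536 to 33409924, GRCh38, plus strand). It stood at 7.17 and 5.81 FPKM with doxycycline, against 27.2 and 22.5 FPKM in untreated cells. The means were 6.49 ± 0.96 FPKM with doxycycline and 24.9 ± 3.32 FPKM in untreated cells (SD, n = 2 each), 3.83-fold lower with doxycycline. Its fitted log2 difference was -1.79 (SE 0.21, limma adjusted p = 0.0573), the 41st lowest of 12029 genes. These levels rested on 451 and 356 reads with doxycycline and on 1445 and 1313 reads in untreated cells.

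KIF18A and KIF18B are kinesin-8 motors, which act at microtubule plus ends. KIF18B, which shortens the astral microtubules of the spindle, lies on chromosome 17 (44924709 to 44947711, minus strand). It had 4.96 and 3.43 FPKM with doxycycline, against 14.1 and 13.99 FPKM in untreated cells, 3.35-fold lower. Its log2 difference was -1.55 (SE 0.21, limma adjusted p = 0.0573). KIF18A, which damps the swing of chromosomes at the spindle equator, had 2.92 and 3.04 FPKM with doxycycline, against 6.48 and 5.67 FPKM in untreated cells. At -0.83, with a standard error of 0.18, it had the smallest log2 difference of the mitotic kinesins tested (limma adjusted p = 0.0965).

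The chromokinesins KIF4A and KIF22 bind chromosome arms. KIF4A, which also limits microtubule length in the central spindle (chromosome X, 70290090 to 70420832, plus strand), stood at 8.61 and 8.08 FPKM with doxycycline, against 23.9 and 20.2 FPKM in untreated cells. This was 2.64-fold lower, with a log2 difference of -1.30 and a standard error of 0.19 (limma adjusted p = 0.0578). KIF22, which pushes chromosome arms toward the spindle equator, had 9.87 and 7.57 FPKM with doxycycline, against 24.6 and 20.6 FPKM in untreated cells (limma adjusted p = 0.0696). Both pairs of libraries were clearly apart for both genes. KIF4B, a copy of KIF4A, had 2 and 2 reads with doxycycline, against 7 and 2 reads in untreated cells, and its value is uncertain, since the counting may have divided reads between such near-identical genes.

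The motors of the spindle body were lower in both doxycycline libraries. KIF11, also called Eg5, pushes the spindle poles apart and is a target of antimitotic compounds. It had 8.68 and 11.4 FPKM with doxycycline, against 24.95 and 22.0 FPKM in untreated cells, a ratio of 0.428 (limma adjusted p = 0.0768). KIF15, which can stand in for KIF11, was the least abundant of the mitotic kinesins tested, at 1.19 and 1.11 FPKM with doxycycline, against 3.48 and 3.09 FPKM in untreated cells (ratio 0.349, limma adjusted p = 0.0806). KIF2C, a microtubule depolymerase that frees wrongly attached chromosomes, was among the most abundant of them. It stood at 10.97 and 11.1 FPKM with doxycycline, against 26.4 and 23.5 FPKM in untreated cells (ratio 0.441, limma adjusted p = 0.0696). KIF2B, a further depolymerase of the same family, was listed at 0 in all 4 libraries.

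Cytokinesis kinesins act where the cell divides in 2. KIF20A carries the chromosomal passenger complex to the central spindle (chromosome 5, 138178719 to 138187715, plus strand). It stood at 6.63 and 9.84 FPKM with doxycycline, against 23.6 and 23.1 FPKM in untreated cells, with a log2 difference of -1.42 and a standard error of 0.23 (limma adjusted p = 0.0682). KIF23, the motor of the centralspindlin complex, had 7.14 and 8.10 FPKM with doxycycline, against 17.99 and 15.2 FPKM in untreated cells (ratio 0.459, limma adjusted p = 0.0775). KIF14, which recruits citron kinase to the midbody, had 5.07 and 6.02 FPKM with doxycycline, against 13.03 and 12.5 FPKM in untreated cells (ratio 0.434, limma adjusted p = 0.0696). KIF20B, needed for the final separation, had 4.85 and 6.15 FPKM with doxycycline, against 12.4 and 10.2 FPKM in untreated cells (ratio 0.487, limma adjusted p = 0.106). None of these genes had a doxycycline value inside the range of its untreated values.

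The differences were of like size in both doxycycline libraries. The median over the 12 mitotic kinesins was -1.15 in replicate 1 and -1.06 in replicate 2, each taken against the mean of the untreated libraries. Members did not keep the same order in both. KIFC1, KIF18B and KIF22, for example, were lower in doxycycline replicate 2 than in replicate 1, whereas KIF20A, KIF11 and KIF20B were lower in replicate 1. The untreated libraries also differed, with 12 of 12 mitotic kinesins lower in untreated replicate 2 than in replicate 1, by a median of -0.17, as were 58.5% of all genes tested. That gap was smaller than the differences with doxycycline.

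**Figure D3:**
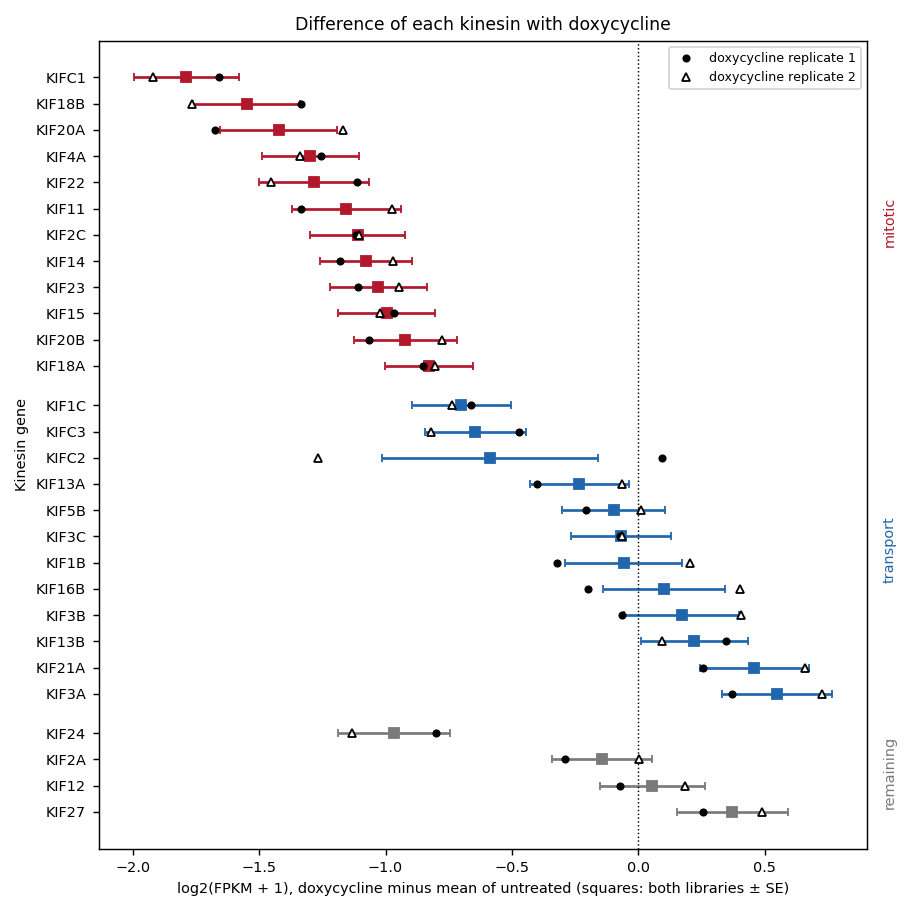
Difference in log2(FPKM + 1) of each of the 28 kinesins, doxycycline minus the mean of the untreated libraries. Squares with bars give the fitted difference ± SE over both doxycycline libraries, and small symbols give each doxycycline library alone. The 12 mitotic kinesins lie between -1.79 and -0.83, and the 12 transport kinesins between -0.70 and 0.55.

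Whether a mitotic kinesin passed the threshold depended on the genes and model used. With protein-coding genes alone, 8 of the 12 passed as lower, as did 1.99% of those genes, while 0.372% passed as higher. Among genes averaging at least 5 FPKM, 9 of the 10 present passed as lower, against 3.16% of such genes lower and 0.606% higher. KIF20B was the exception. With voom on recovered reads 3 of the 12 passed as lower, namely KIFC1, KIF18B and KIF4A, against 0.865% of genes lower and 0.141% higher. Without each library in turn, all 12 differences stayed below 0. Their median was -1.06 without doxycycline replicate 1 and -1.15 without doxycycline replicate 2. It was -1.06 without untreated replicate 1 and -1.215 without untreated replicate 2. With 1 library left in a group, the spread comes from the other group's pair alone, and the lone library is assumed to vary like it. Only differences are therefore given for these fits.

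Promoters of cell cycle genes often hold the cell cycle genes homology region, CHR, which the DREAM and MYB-MuvB complexes can bind, and CCAAT boxes, bound by NF-Y. The letters TTTGAA for CHR, CCAAT for the box, and TTTGGCG or TTTCCCG for E2F sites were searched on both strands. The windows were RefSeq promoters on GRCh38.p14, from 250 bases before to 50 bases after each start, found for 34 of the 42 kinesins. No matches of different motifs overlapped in these windows. CHR letters were found in 9 of 12 tested mitotic kinesins and in 1 of 9 tested transport kinesins with a promoter, against 15.4% of 27305 promoters. CCAAT was found in 10 of 12 mitotic and 3 of 9 transport kinesins, against 35.7% of promoters. Both together were found in 8 of 12 mitotic kinesins and 1 of 9 transport kinesins, against 6.08%. The E2F letters were found in 2 of 12 mitotic kinesins and 1 of 9 transport kinesins, against 6.11%. A match is a description of these letters and no evidence of binding.

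The promoters below are those of the 4 mitotic kinesins with the lowest p and of KIF1C, the most abundant transport kinesin, so that the arrangement of both motifs can be compared. Each runs from 120 bases before to 15 bases after the RefSeq start on the gene's strand, 5′ to 3′. Capitals mark the searched letters on either strand, so that a box on the other strand reads ATTGG and a CHR on it reads TTCAAA.
KIFC1, chr6:33391703-33391837, plus strand: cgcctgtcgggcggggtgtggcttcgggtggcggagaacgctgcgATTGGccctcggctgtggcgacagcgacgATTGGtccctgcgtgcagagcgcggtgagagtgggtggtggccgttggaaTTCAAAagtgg
KIF18B, chr17:44947759-44947893, minus strand: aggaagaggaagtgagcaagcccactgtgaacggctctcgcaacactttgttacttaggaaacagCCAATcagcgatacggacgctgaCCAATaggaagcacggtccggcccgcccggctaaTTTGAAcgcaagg
KIF4A, chrX:70289984-70290118, plus strand: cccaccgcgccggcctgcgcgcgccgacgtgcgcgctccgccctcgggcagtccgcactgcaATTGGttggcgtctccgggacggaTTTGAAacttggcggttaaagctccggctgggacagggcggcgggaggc
KIF20A, chr5:138178992-138179126, plus strand: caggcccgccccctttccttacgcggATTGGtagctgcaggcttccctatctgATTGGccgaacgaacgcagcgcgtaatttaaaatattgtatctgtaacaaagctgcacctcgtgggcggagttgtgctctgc
KIF1C, chr17:4997830-4997964, plus strand: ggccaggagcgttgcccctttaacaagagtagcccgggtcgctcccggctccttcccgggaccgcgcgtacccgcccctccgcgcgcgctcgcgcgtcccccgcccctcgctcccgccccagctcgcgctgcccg

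KIFC1, KIF18B and KIF4A each held a CHR downstream of at least 1 CCAAT box, near the start site. KIF20A held a pair of CCAAT boxes and no TTTGAA in the window, and the KIF1C window held neither. Over the tested mitotic kinesins, the 10 CHR matches lay between positions -55 and 31 relative to the start, and the 14 CCAAT matches between -131 and -22. The single transport kinesin with both was KIF5B, whose CHR letters lay at position -140.

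**Figure D4:**
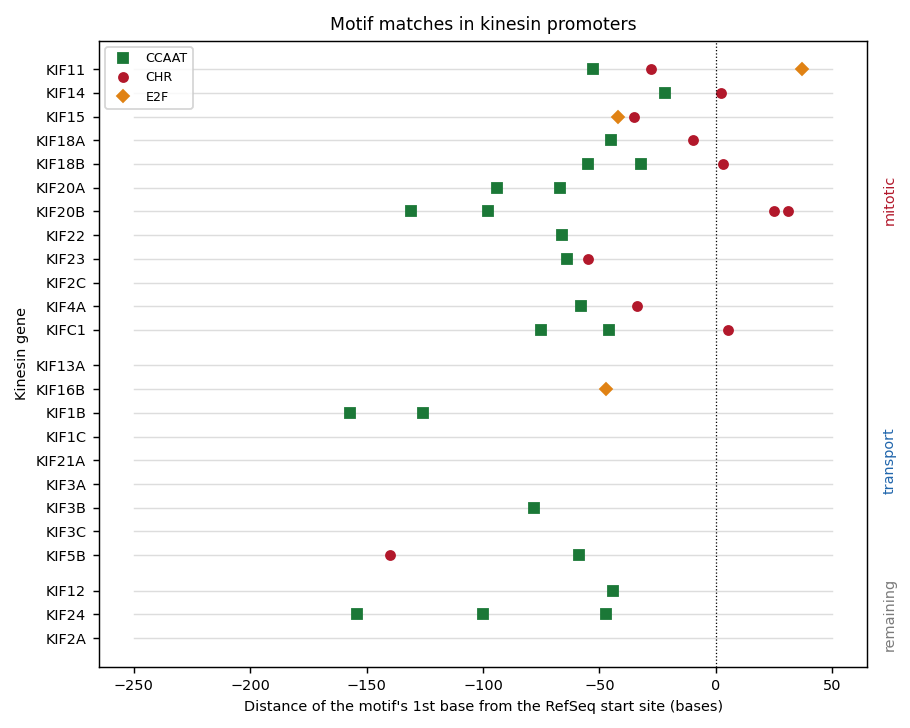
Matches to CHR (red circles), CCAAT (green squares) and E2F letters (orange diamonds) in the promoter windows of the kinesins tested that had one, by distance of the first base from the RefSeq start site. CHR matches of mitotic kinesins lie between positions -55 and 31.

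Among transport kinesins, KIF1C and KIFC3 were lower and KIF3A and KIF21A higher in both doxycycline libraries. Of the 12 tested, 3 lay lower in both (28.9% of all genes), 2 lay higher in both (24.3%) and 7 overlapped. Neither count was above its share over all genes. KIF1C, which carries vesicles and integrins toward the cell periphery, had the highest mean level of all kinesins. It stood at 24.6 and 23.3 FPKM with doxycycline, against 40.2 and 38.8 FPKM in untreated cells, 1.65-fold lower with a log2 difference of -0.70 and a standard error of 0.19 (limma adjusted p = 0.162). KIFC3, a minus-end motor of epithelial junctions and apical transport, had 8.54 and 6.50 FPKM with doxycycline, against 12.4 and 12.03 FPKM in untreated cells (limma adjusted p = 0.190). KIF13A, which moves endosomes, was the other gene lower in both, but its doxycycline value of 7.19 FPKM in replicate 2 was close to the untreated values of 7.40 and 7.74 FPKM (limma adjusted p = 0.548).

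KIF3A and KIF3B form the kinesin-2 motor of intraflagellar transport together with KIFAP3, their cargo-binding subunit. KIF3A had 2.71 and 3.75 FPKM with doxycycline, against 1.64 and 2.12 FPKM in untreated cells, a ratio of 1.72 (limma adjusted p = 0.265). KIFAP3 had 8.83 and 12.5 FPKM with doxycycline, against 6.28 and 5.61 FPKM in untreated cells, a ratio of 1.79 (limma adjusted p = 0.179). KIF3B overlapped, at 14.3 and 20.2 FPKM with doxycycline, against 14.5 and 15.5 FPKM in untreated cells. For all 3 genes doxycycline replicate 2, the library with more mitochondrial reads, gave the higher value. Without mitochondrially encoded genes the log2 differences were 0.61 for KIF3A and 0.26 for KIF3B, against 0.55 and 0.17 in the main test. The part of that library's composition in the result was not otherwise tested. KIF3C, a further kinesin-2 subunit, had 10.03 and 10.1 FPKM with doxycycline, against 9.34 and 11.98 FPKM in untreated cells.

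KIF21A, which slows microtubule growth at the cell cortex, lay higher in both doxycycline libraries, at 17.5 and 23.5 FPKM with doxycycline, against 14.2 and 14.7 FPKM in untreated cells (ratio 1.42, limma adjusted p = 0.321). The transport kinesins that follow overlapped between groups. KIF5B, the conventional kinesin heavy chain that moves mitochondria and lysosomes, had 21.02 and 24.6 FPKM with doxycycline, against 26.0 and 22.9 FPKM in untreated cells. Its log2 difference of -0.10 had a standard error of 0.21. KIF1B, KIF13B and KIF16B, motors of mitochondria, vesicles and early endosomes, overlapped between groups, with log2 differences of -0.06, 0.22 and 0.10. KIFC2 differed between the doxycycline libraries more than any other kinesin tested. Its level was 11.7 and 3.94 FPKM in doxycycline replicates 1 and 2, against 11.3 and 10.5 FPKM in untreated cells (limma adjusted p = 0.497).

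Of these transport genes, 5 passed the threshold without doxycycline replicate 1 (KIF1C, KIFC2 and KIFC3 lower, KIF3A and KIF21A higher), when 19.9% of all genes passed lower and 12.9% higher. In that setting the single doxycycline library was set against the spread of the untreated pair alone, and for KIFC2 the library left out was the one with 11.7 FPKM. None passed without doxycycline replicate 2, when 4.95% of genes passed higher, or without either untreated library.

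KIF24 was the only remaining kinesin of the 4 tested that lay lower in both doxycycline libraries. It sits at centrioles and holds back the growth of cilia. KIF24 had 1.80 and 1.23 FPKM with doxycycline, against 3.40 and 4.42 FPKM in untreated cells, 2.58-fold lower with a log2 difference of -0.97 and a standard error of 0.22 (limma adjusted p = 0.116). It passed the threshold as lower without doxycycline replicate 1 (19.9% of genes) and without doxycycline replicate 2 (8.39%), with the spread of the untreated pair alone. KIF27, a relative of the Hedgehog regulator KIF7, lay higher in both, at 1.68 and 2.15 FPKM with doxycycline, against 1.07 and 1.43 FPKM in untreated cells (limma adjusted p = 0.408). KIF2A, a depolymerase of spindle poles, neurites and cilia, overlapped at 11.4 and 14.13 FPKM with doxycycline, against 14.14 and 14.08 FPKM in untreated cells. KIF12, known from kidney and liver epithelia, was at 14.2 and 17.2 FPKM with doxycycline, against 13.6 and 16.5 FPKM in untreated cells.

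**Figure D5:**
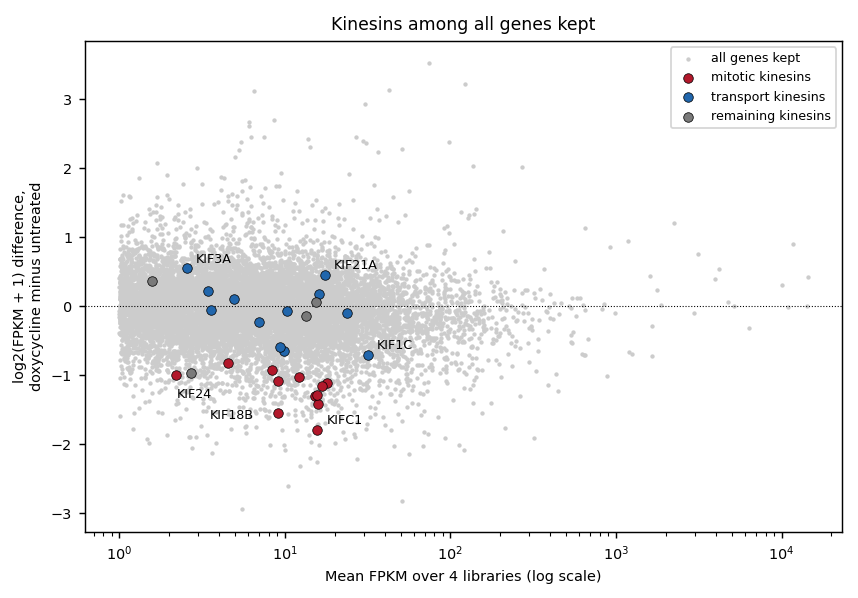
Difference in log2(FPKM + 1), doxycycline minus untreated, against mean FPKM over the 4 libraries on a log axis, for the 12029 genes kept (grey) and the 28 kinesins (red, mitotic; blue, transport; dark grey, remaining). The mitotic kinesins lie below the bulk of genes of the same level, down to KIFC1 at -1.79.

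The 14 kinesins under the limit were scarce, with means between 0 and 0.933 FPKM and 10 of them under 0.2 FPKM. KIF26A and KIF26B, atypical kinesins of which the mouse Kif26b is needed for kidney development, were lower in both doxycycline libraries. KIF26A had 0.299 and 0.113 FPKM with doxycycline (38 and 14 reads), against 1.32 and 0.858 FPKM in untreated cells (142 and 101 reads). KIF26B had 0.203 and 0.102 FPKM with doxycycline (55 and 27 reads), against 0.630 and 0.710 FPKM in untreated cells (144 and 178 reads). Neither was tested with the limit in place. KIF7, the Hedgehog regulator of the ciliary tip, was at 5 and 5 reads with doxycycline, against 9 and 22 reads in untreated cells. Its exons overlap those of TICRR on the other strand over 11.8% of its length, and reads in that stretch cannot be told apart without strand. TICRR stood at 1.29 and 1.03 FPKM with doxycycline, against 3.83 and 5.08 FPKM in untreated cells. KIF9 and KIF17 were between 0.488 and 1.07 FPKM. KIF19 was listed at 0, and KIF1A, KIF5A, KIF5C, KIF6, KIF21B and KIF25 had at most 53 reads in any library.

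Kinesins whose symbols fall outside the pattern were set beside these values. CENPE, the kinetochore kinesin that brings chromosomes to the spindle equator, had 2.28 and 3.41 FPKM with doxycycline, against 5.54 and 4.80 FPKM in untreated cells (ratio 0.550, limma adjusted p = 0.188). STARD9, a centrosomal kinesin, was at 0.465 and 0.517 FPKM with doxycycline, against 0.469 and 0.677 FPKM in untreated cells.

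Genes of proteins that work with mitotic kinesins also stood lower. This list was chosen with earlier results of these data known, so its counts describe it and test nothing. Of 20 such genes, 19 were tested, and 19 lay lower in both doxycycline libraries (28.9% of all genes). An unadjusted limma p under 0.05 was found for 17 of them, against 11.9% of all genes in this direction. The 19 genes had a median log2 difference of -1.13, the same to 2 decimals as that of the mitotic kinesins. Their range was -1.93 to -0.24, and the largest limma adjusted p was 0.583. AURKA, the spindle pole kinase, had 7.49 and 10.6 FPKM with doxycycline, against 40.5 and 33.2 FPKM in untreated cells (limma adjusted p = 0.0573). PLK1, a kinase that binds KIF20A at the central spindle, had 13.7 and 11.2 FPKM with doxycycline, against 44.04 and 39.6 FPKM in untreated cells. BIRC5, a member of the chromosomal passenger complex, had 15.7 and 12.9 FPKM with doxycycline, against 54.4 and 43.2 FPKM in untreated cells. CHR letters stood in 13 of the 16 promoters found for this list, against 15.4% of all promoters. CCAAT stood in 13 of the 16, against 35.7%, and E2F letters in 3 of the 16, against 6.11%.

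Cargo adaptors and kinesin light chains had a median difference of 0.11 over the 16 tested, with 1 lower (28.9% of all genes) and 6 higher (24.3%) in both doxycycline libraries. CHR letters were found in 0 of 13 of their promoters, against 15.4% of all promoters. BORCS5, a subunit of a complex that positions lysosomes, had 2.11 and 2.03 FPKM with doxycycline, against 1.61 and 1.23 FPKM in untreated cells (limma adjusted p = 0.407). Genes of intraflagellar transport had a median of 0.24 over 18 tested, with 1 lower (28.9% of all genes) and 11 higher (24.3%) in both. IFT27 was at 2.78 and 2.30 FPKM with doxycycline, against 1.22 and 1.45 FPKM in untreated cells (limma adjusted p = 0.213). WDR35 and IFT52, further subunits of these particles, had ratios of 1.40 and 1.37.

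Dynein, the motor that walks opposite to most kinesins, and dynactin had a median of 0.11 over 23 tested genes, with 6 lower (28.9% of all genes) and 8 higher (24.3%) in both doxycycline libraries. NDE1, a dynein regulator that also acts in mitosis, had 2.31 and 2.84 FPKM with doxycycline, against 5.15 and 5.46 FPKM in untreated cells (limma adjusted p = 0.107). DYNLT3, a dynein light chain, had 8.38 and 10.4 FPKM with doxycycline, against 5.76 and 5.19 FPKM in untreated cells. BICD2, a dynein adaptor, had 6.75 and 11.8 FPKM with doxycycline, against 18.3 and 16.6 FPKM in untreated cells.

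A list of regulators of cell cycle promoters had a median of -0.21 over 20 tested. Of these, 11 lay lower in both doxycycline libraries (28.9% of all genes) and 5 higher (24.3%). The list also holds CDKN1A, a CDK inhibitor that does not itself bind promoters, and its log2 difference of 1.10 was the highest of the list. CDKN1A is named after its value was seen. MYBL2, the MYB factor of the complex that activates late cell cycle genes, had 25.2 and 15.9 FPKM with doxycycline, against 96.5 and 88.3 FPKM in untreated cells (limma adjusted p = 0.0573). FOXM1, which joins it at promoters with CHR letters, had 9.66 and 8.25 FPKM with doxycycline, against 25.4 and 28.7 FPKM in untreated cells (limma adjusted p = 0.0573). E2F2, an activating E2F factor, had 0.546 and 0.260 FPKM with doxycycline, against 2.70 and 2.53 FPKM in untreated cells. These 3 genes had the lowest p of the list and do not stand for all of it. The NF-Y genes NFYA, NFYB and NFYC had log2 differences of 0.41, -0.17 and -0.12. The levels of these proteins were not measured here.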

How the data were processed

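The authors deposited 1 table per library, 4 in all, with FPKM for 58735 genes, per the file headers. The submitters' processing notes name HISAT2 2.0.5, limma and featureCounts 1.5.0-p3 without saying what each did. Build, strandedness and filters are not given in the sources used here. Coordinates of all 58735 genes were those of GENCODE release 29 (GRCh38). Multiplying FPKM by gene length gave, within 0.02 reads, whole multiples of a step common to each library in 100% of values, from which reads and depth were taken. They cover counting error only.

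Genes averaging at least 1 FPKM were tested with limma-trend (limma 3.58.1, R 4.3.3) on log2(FPKM + 1), doxycycline minus untreated, with 2 residual degrees of freedom and no covariate. For a single value the smallest exact two-sided permutation p over 2 against 2 libraries is 0.333. Fold changes are ratios of group means. The steps were tested on simulated data. Python 3.11.15 and pandas 2.3.3 were also used.

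Members, classes and lists were chosen with earlier results of these data known. Named are every kinesin, the 3 genes with the lowest p of each comparison list, CENPE, STARD9, USP35 and cell type markers, except 2 genes not reported here; TICRR and KIF7's overlap with it were added after their values were seen. Promoters are from RefSeq (GRCh38.p14). Protein sequences were not used here. Alternatives were other filters, pseudocount, scaling, gene sets, voom on recovered reads, leaving out each library, a replicate block and another class for KIF2A and KIF24.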

Additional observations from a re-analysis of the deposited data

How the results depend on the processing

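The median of the 12 mitotic kinesins stayed below 0 under every alternative run. It was -1.30 with log2(FPKM + 0.1) and -1.27 with voom on recovered reads, and moved by less than the spread between replicates otherwise. Without each library in turn it lay between -1.215 and -1.058. All tested mitotic kinesins kept a difference below 0 in each alternative. The transport median lay between -0.135 and 0.0534 without each library in turn and had no stable sign. The median of the remaining kinesins lay between -0.181 and 0.0934 in the same way, and was 0.2145 with KIF2A and KIF24 counted as mitotic. Genes past the threshold over all genes numbered 0 in the main test, 261 with a mean of at least 5 FPKM, 242 with protein-coding genes only, 121 with voom, and between 0 and 3942 without each library in turn. No scaling moved the median of all genes tested by more than 0.1. The libraries share replicate numbers, but the labels do not pair them. With a replicate block 784 of 12029 genes passed, 582 lower and 202 higher, and 12 of 12 mitotic kinesins and KIF24 passed as lower, against 0 kinesins without the block. The deviations of same-numbered libraries from their group means had a correlation of 0.207 across genes with 2 pairs, which does not establish a pairing. With 2 libraries a group, a kinesin of 1 FPKM rests on about 100 reads. Members below that were described only, except in the fit with no filter.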
